A study of Drosophila melanogaster with 38 samples.

Results

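The peaks described here are those on the heterochromatin sequences of the Drosophila melanogaster build dm3, taken as every interval whose sequence name contains Het. They comprised 424 of the 3534 peaks in the deposited list for the enzyme OGA (12.0%) and 81 of the 1883 peaks in the deposited O-GlcNAc-seq table (4.30%), 505 peaks in all. The choice used sequence names only and no measured value.

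The labels describe larvae of the strain background Oregon R, either OGA knockout (OGA-null) or wild type (WT). For O-GlcNAc-seq, both genotypes were raised on food with 150 uM Ac4GalNAz, an azide-bearing sugar, for 36 h. They were then moved to food with DMSO only and collected at once (0 h), at steps of 4 h up to 24 h, and at 36 h, a period called the chase, with 2 biological replicates for each genotype and time. Proteins that had taken up the sugar were coupled to biotin through the azide, and their chromatin was purified on streptavidin and sequenced. OGA ChIP-seq used the antibody MEGA5 on 1 OGA-null and 1 WT library. Both libraries share a single peak list, so intervals from the knockout, which lacks the target, cannot be set apart from those of WT. Whole larvae were pooled, so every value is an average over tissues. The 4 libraries from larvae not fed the sugar were not analysed here, so no unlabelled background stands beside the signal.

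O-GlcNAc is a single sugar on serines and threonines of proteins in the nucleus and cytoplasm, put there by the transferase OGT and removed by the hydrolase OGA. In flies OGT is encoded by super sex combs, a gene of the Polycomb group of repressors. Heterochromatin is the compact, repeat-rich and gene-poor chromatin around centromeres and on most of the Y chromosome, where histone H3 methylated at lysine K9 is bound by the protein HP1. The Het sequences of dm3 are the assembled pieces of it that are assigned to a chromosome arm but not joined to it.

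Each deposited O-GlcNAc value combines both replicates of a genotype and time. There is therefore 1 value per peak and condition, no spread between replicates, and no test of any difference below. The values are signal that grows with peak width, so they are given per base, in the authors' units, and sequencing depth is unknown. Differences between Het peaks and the other peaks are descriptions, and peaks that lie near each other are not independent.

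OGA peaks were the more frequent kind on all 6 Het sequences that held a peak. There were 5.23 OGA peaks for each O-GlcNAc peak on Het sequences, against 1.73 on the other sequences. 2RHet, the heterochromatin sequence of the right arm of chromosome 2, held 179 OGA and 28 O-GlcNAc peaks, a ratio of 6.39. 3LHet held 114 and 21 peaks, a ratio of 5.43, and 3RHet held 95 and 28 peaks, a ratio of 3.39. The ratio on each of these sequences was above the 1.62 to 1.80 found on the arms 2L, 2R, 3L, 3R and X.

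The small Het sequences carried few O-GlcNAc peaks. 2LHet held 28 OGA peaks and a single O-GlcNAc peak, at 131019 to 131072. XHet held 7 OGA and 3 O-GlcNAc peaks. YHet, from the Y chromosome, held 1 OGA peak of 3 bp at 120460 to 120462 and no O-GlcNAc peak. Chromosome 4, which is small and largely heterochromatic but is not a Het sequence in dm3, held 13 OGA peaks and 1 O-GlcNAc peak.

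**Figure D1:**
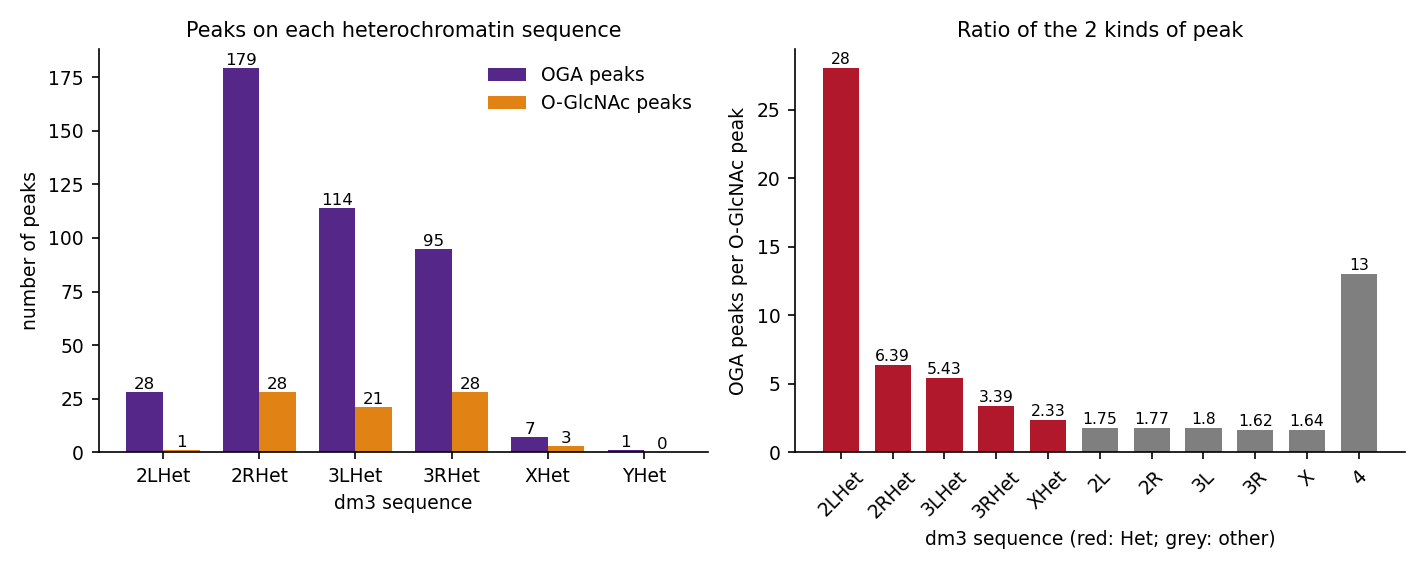
Left, number of OGA (purple) and O-GlcNAc (orange) peaks on each Het sequence of dm3; right, OGA peaks per O-GlcNAc peak on the Het sequences that carry both kinds (red), the arms and chromosome 4 (grey). 2RHet holds 179 OGA and 28 O-GlcNAc peaks, and the Het ratios of 2.33 to 28 lie above the 1.62 to 1.80 of the arms, while chromosome 4 has 13.

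Set against the span between the outermost peaks on a sequence, OGA peaks were denser on Het sequences and O-GlcNAc peaks sparser than on the other sequences pooled. Het sequences had 4.99 OGA peaks per 100 kb of this span, against 2.61 on the others, and 0.953 O-GlcNAc peaks per 100 kb, against 1.51 on the others. OGA density was 9.21 per 100 kb on 2LHet (span 304 kb), 5.55 on 2RHet (3224 kb), 4.49 on 3LHet (2539 kb), 4.07 on 3RHet (2337 kb) and 7.68 on XHet (91.1 kb). O-GlcNAc density was 0.329 per 100 kb on 2LHet, 0.868 on 2RHet, 0.827 on 3LHet and 1.20 on 3RHet. Its value on XHet was 3.29. Both XHet densities rest on few peaks in a short span, 7 of OGA and 3 of O-GlcNAc. The other sequences differed among themselves. The arms 2L, 2R, 3L and 3R had 2.79 to 3.37 OGA and 1.63 to 1.91 O-GlcNAc peaks per 100 kb, and X had 1.06 and 0.646. Chromosome 4 had 0.996 OGA and 0.0766 O-GlcNAc peaks per 100 kb, the lowest of both kinds among these sequences. Low O-GlcNAc density was therefore also found on X and chromosome 4, whereas OGA density was higher on each of the 5 Het sequences with both kinds than on any arm or chromosome 4. YHet, with 1 OGA peak, has no span from which a density could be taken. Full sequence lengths were not used.

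Along the 3 long Het sequences the kinds were distributed unevenly. In successive stretches of 500 kb of 2RHet, OGA peaks numbered 21, 40, 17, 20, 14, 38 and 29, and O-GlcNAc peaks 9, 6, 6, 0, 3, 2 and 2. The end of 2RHet with the higher coordinates was thus rich in OGA peaks and poor in O-GlcNAc peaks. On 3LHet the stretches held 20, 29, 23, 21, 17 and 4 OGA peaks, and 4, 1, 5, 6, 5 and 0 O-GlcNAc peaks. On 3RHet they held 16, 24, 18, 22 and 15 OGA peaks, and 3, 8, 4, 9 and 4 O-GlcNAc peaks. The last stretch of each sequence may not be a full 500 kb. Its last peak ended at 3243678 on 2RHet, 2552086 on 3LHet and 2346892 on 3RHet. Low counts there are therefore not a sign of lower density.

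Each of these sequences had a long interval without an O-GlcNAc peak that did hold OGA peaks. The longest ran for 668 kb on 2RHet, from 1497595 to 2165442, and held 24 OGA peaks. On 3LHet it ran for 437 kb, from 639603 to 1076972, with 28 OGA peaks, and on 3RHet for 401 kb, from 183481 to 584432, with 12 OGA peaks. The OGA peaks in the 3RHet interval left long gaps of their own. The one at 429573 to 429574 lay 97.7 kb from its nearest OGA neighbour. Neighbouring OGA peaks were a median of 5.19 kb apart on 2RHet, 12.0 kb on 3LHet and 11.6 kb on 3RHet. For O-GlcNAc peaks the medians were 83.3 kb, 71.2 kb and 46.1 kb on the same sequences.

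Peaks of both kinds were narrow. OGA peaks on Het sequences had a median width of 18 bp (range 1 to 277), against 15 bp (1 to 507) elsewhere, and 91 of the 424 (21.5%) were at most 5 bp wide, against 878 of 3110 (28.2%). O-GlcNAc peaks on Het sequences had a median width of 20 bp (20 to 194), against 37 bp (20 to 557) elsewhere. Of the 81, 41 (50.6%) lay at 20 bp, the smallest width in the table, against 638 of 1802 (35.4%). With OGA peaks under 20 bp left out, 200 of the 424 remained on Het sequences, 12.8% of those left on all sequences, against 12.0% before. Pooled, Het sequences thus had slightly wider OGA peaks and narrower O-GlcNAc peaks, but not each of them did. The OGA median was 32 bp on 2LHet, 18 bp on 2RHet, 16 bp on 3LHet and 3RHet, and 11 bp on XHet. It was 13 to 16 bp on the arms and 30 bp on chromosome 4. The O-GlcNAc median was 20 to 22 bp on the 3 long Het sequences, against 33 to 57 bp on the arms. It was 40 bp over the 3 peaks of XHet, and the single peak of 2LHet had 54 bp.

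The widest OGA peak on Het sequences spanned 277 bp, on 2RHet at 3179941 to 3180217, 45.4 kb from the nearest O-GlcNAc peak. The next widest on another sequence was that of 2LHet at 50128 to 50356 (229 bp), 80.7 kb from an O-GlcNAc peak. Those of 3RHet at 578404 to 578551 (148 bp) and 3LHet at 2167100 to 2167217 (118 bp) were 5.88 kb and 32.3 kb away. The widest on XHet, 66 bp at 125307 to 125372, was the closest to an O-GlcNAc peak, at 279 bp.

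The widest O-GlcNAc peak covered 194 bp of 3RHet, at 826361 to 826554. It was followed by 121 bp on 3LHet at 192382 to 192502 and 120 bp on 2RHet at 1137916 to 1138035. No Het peak of either kind reached the largest width found elsewhere.

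OGA and O-GlcNAc peaks lay farther from each other on Het sequences than elsewhere. The median OGA peak was 45.3 kb from the nearest O-GlcNAc peak on its sequence, against 12.3 kb on other sequences. Leaving out YHet, which has no O-GlcNAc peak, 21 of 423 OGA peaks (4.96%) lay within 1 kb of an O-GlcNAc peak and 84 (19.9%) within 10 kb. On other sequences these numbers were 456 (14.7%) and 1441 (46.3%). Such distances follow from how many peaks each list holds on a sequence as well as from where they lie, and O-GlcNAc peaks were sparser on Het sequences.

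The distance differed among the Het sequences. The median from an OGA peak to the nearest O-GlcNAc peak was 107 kb on 2LHet, 45.8 kb on 2RHet, 53.8 kb on 3LHet, 18.6 kb on 3RHet and 23.9 kb on XHet. 3RHet, the long sequence with the shortest distance, was also the one with the highest O-GlcNAc density among the long ones.

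Read from the O-GlcNAc side the difference was smaller. The median O-GlcNAc peak lay 9.51 kb from an OGA peak on Het sequences, against 4.13 kb elsewhere. Within 1 kb of an OGA peak lay 20 of the 81 (24.7%), against 472 of 1802 (26.2%), and within 10 kb lay 41 (50.6%), against 1210 (67.1%). Within 50 kb lay 78 (96.3%), against 1694 (94.0%). At 1 kb and at 50 kb the Het share was thus near that of the other peaks, and it was lower at 10 kb.

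**Figure D2:**
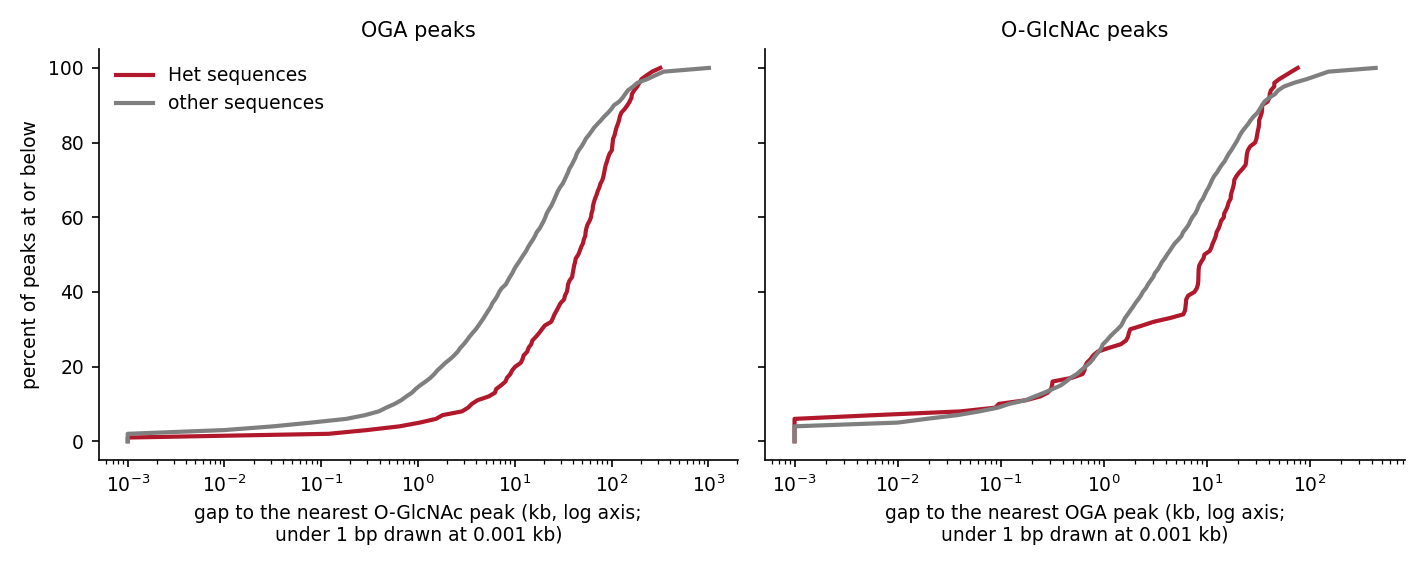
Cumulative percent of peaks by the gap to the nearest peak of the other kind on the same sequence (kb, log axis), for Het peaks and other peaks, with overlapping peaks drawn at the left end. The median OGA peak lies 45.3 kb from an O-GlcNAc peak on Het sequences and 12.3 kb elsewhere, and the median O-GlcNAc peak lies 9.51 kb and 4.13 kb from an OGA peak.

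Direct overlap, by at least 1 bp, was found at 6 places on Het sequences, 1.42% of the OGA peaks and 7.41% of the O-GlcNAc peaks there. Elsewhere 79 OGA peaks (2.54%) and 75 O-GlcNAc peaks (4.16%) overlapped. 4 of the 6 lay on 3RHet. The largest was 23 bp, between the OGA peak at 1832158 to 1832221 and the O-GlcNAc peak at 1832154 to 1832180. Next came 19 bp, between the OGA peak at 1168186 to 1168236 and the O-GlcNAc peak at 1168169 to 1168204. The other two on 3RHet were 9 bp at the O-GlcNAc peak from 2225687 to 2225706 and 7 bp at that from 1877378 to 1877428.

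The remaining overlaps were on XHet, by 8 bp at the O-GlcNAc peak from 125652 to 125671, and on 2RHet, by 3 bp at that from 527186 to 527218. The XHet overlap covered the whole OGA peak of 8 bp, and so did the 2RHet overlap with its OGA peak of 3 bp. The closest pairs without overlap were all on 3LHet. Their O-GlcNAc peaks began at 1334395, 1554029 and 2403932, and the gaps to OGA were 10 bp, 87 bp and 96 bp.

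OGA peaks gathered into groups, and most of these groups held no O-GlcNAc peak. When peaks of one kind were chained while the next lay within 10 kb, 324 of the 424 OGA peaks (76.4%) fell into 96 clusters and 100 stood alone. Elsewhere 70.5% had an OGA neighbour within 10 kb. With a fixed gap this share also follows from density, and OGA peaks were denser on Het sequences. Of the 96 clusters, 42 were pairs and 17 had at least 5 peaks. Elsewhere 267 of 571 clusters were pairs, 118 had at least 5 peaks and the largest had 37. Only 12 of the 96 Het clusters (12.5%) held an O-GlcNAc peak inside, against 160 of 571 (28.0%) on other sequences. This share also depends on the density of O-GlcNAc peaks, which was lower on Het sequences.

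The largest OGA cluster on a Het sequence had 11 peaks in 25.5 kb, on 2RHet from 826145 to 851655. The next, also on 2RHet, had 10 peaks each, in 18.7 kb from 2821635 to 2840333 and in 6.64 kb from 2993603 to 3000241. None of these 3 clusters held an O-GlcNAc peak.

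O-GlcNAc peaks clustered less. Of the 81, 32 (39.5%) formed 14 clusters and 49 stood alone, against 66.6% with an O-GlcNAc neighbour within 10 kb on other sequences. With a fixed gap this share also follows from density, and O-GlcNAc peaks were sparser on Het sequences. No Het cluster of O-GlcNAc peaks had more than 4 peaks, whereas 67 of the 357 elsewhere had at least 5 and the largest had 17. The largest on a Het sequence, 4 peaks in 10.2 kb of 2RHet from 160966 to 171180, held no OGA peak. Clusters of 3 peaks lay on 2RHet from 527186 to 529051, with 1 OGA peak inside, and on 3LHet from 192382 to 199221, with none.

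The O-GlcNAc signal at Het peaks started near that of the other peaks and was then higher in both genotypes. At 0 h the median per base was 23.4 in OGA-null larvae (range over the 81 peaks 18.8 to 31.9) and 33.1 in WT larvae (25.4 to 52.8). For the 1802 other peaks the medians were 22.8 in OGA-null and 32.8 in WT. The median starting level of Het peaks thus lay within a few percent of that of the other peaks in each genotype, without matching for width. Signal per base still rose with width at 0 h. On log2 scales Pearson's r was 0.40 in OGA-null and 0.32 in WT larvae over Het peaks. Over the other peaks, whose median width was larger, it was 0.55 and 0.54.

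At the 7 later times, from 4 to 36 h, the Het median per base in OGA-null larvae was 23.4, 17.7, 15.1, 14.0, 7.77, 3.61 and 1.80. In WT larvae it was 16.8, 11.9, 5.87, 6.08, 3.30, 1.24 and 0.28. The WT series was therefore not lower at 16 h than at 12 h. At the last time the 81 peaks spanned 0.864 to 3.22 per base in OGA-null and 0.0549 to 1.21 in WT larvae, and no Het peak was listed at 0.

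**Figure D3:**
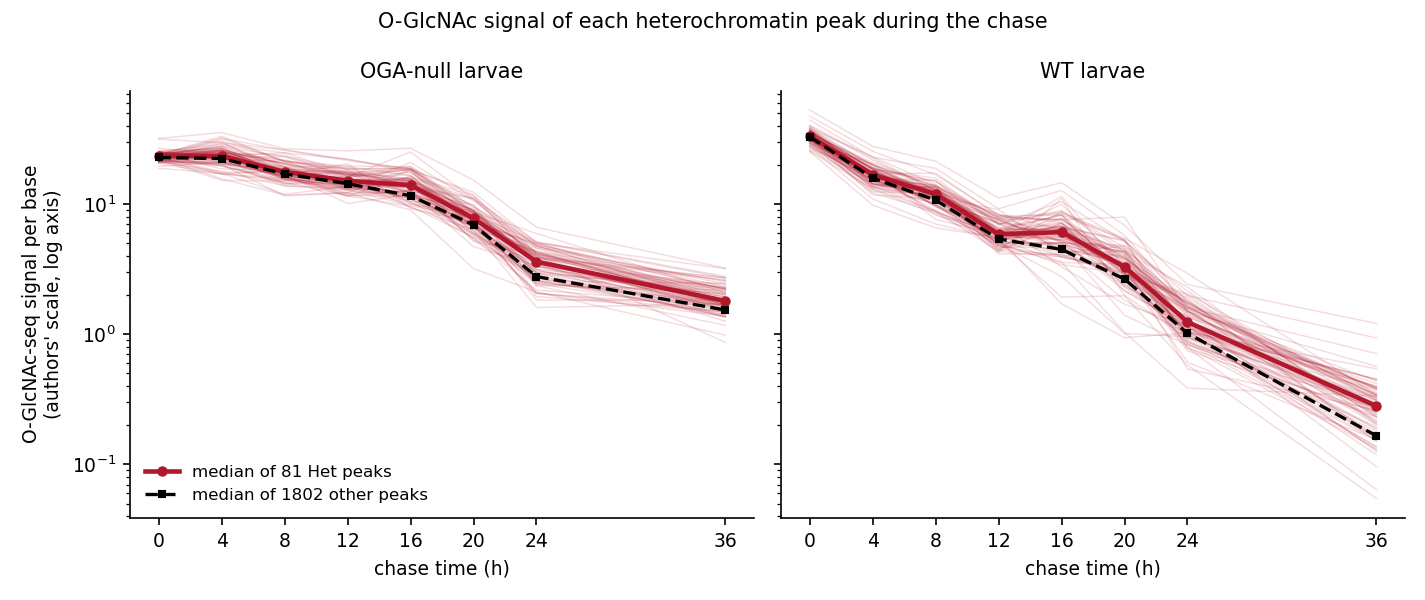
O-GlcNAc signal per base (authors' units, log axis) at the 81 Het peaks and the 1802 other peaks against chase time in h, for OGA-null (left) and WT larvae (right): thin lines are single Het peaks, the thick red line their median, and the dashed black line the median of the other peaks. At 0 h the Het and other medians nearly coincide, at 23.4 and 22.8 in OGA-null and 33.1 and 32.8 in WT, and at 16 h the Het medians are 14.0 in OGA-null and 6.08 in WT.

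A factor that scales a whole column cancels when each peak is set against its own 0 h signal and Het peaks are then set against the other peaks of the same columns. The scaling of the columns is not known here, and factors that differ between the replicates within a column may not cancel. At 4, 8, 12, 20 and 36 h the median Het peak of OGA-null larvae retained 100.9%, 76.5%, 66.4%, 33.3% and 7.94% of its starting signal. The other peaks were at 97.8%, 75.5%, 62.8%, 30.3% and 6.75%. In WT larvae the median Het peak retained 50.1%, 35.3%, 18.2%, 9.93% and 0.828% at these times, with the other peaks at 47.9%, 32.6%, 16.3%, 7.99% and 0.484%. At 16 h the Het median was 60.6% in OGA-null and 17.98% in WT larvae, and at 24 h 15.1% and 3.83%. The Het median was the higher one at all 7 chase times after 0 h in both genotypes.

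On the log2 scale the excess of the Het median over the other peaks in OGA-null larvae was 0.04, 0.02, 0.08, 0.26, 0.14, 0.31 and 0.23 from 4 to 36 h. In WT larvae it was 0.06, 0.12, 0.16, 0.41, 0.31, 0.34 and 0.77 at the same times. In both genotypes the 16 h value was larger than those at 12 h and 20 h. The WT value at 36 h rests on signal near the floor, with medians of 0.28 per base at Het peaks and 0.17 at the others.

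Most Het peaks shared in the excess, and the classes overlapped widely. At 16 h, 63 of the 81 Het peaks in OGA-null and 62 in WT larvae were above the median of the other peaks, and 21 in OGA-null and 23 in WT larvae were above their 90th percentile. At 8 h in OGA-null larvae 43 of 81 were above the median of the others. The share of 0 h signal left at 16 h ranged over Het peaks from 38.8 to 110% in OGA-null and from 6.64 to 33.9% in WT larvae. It is drawn for every peak, by sequence, in the plot of the percent left at 16 h.

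**Figure D4:**
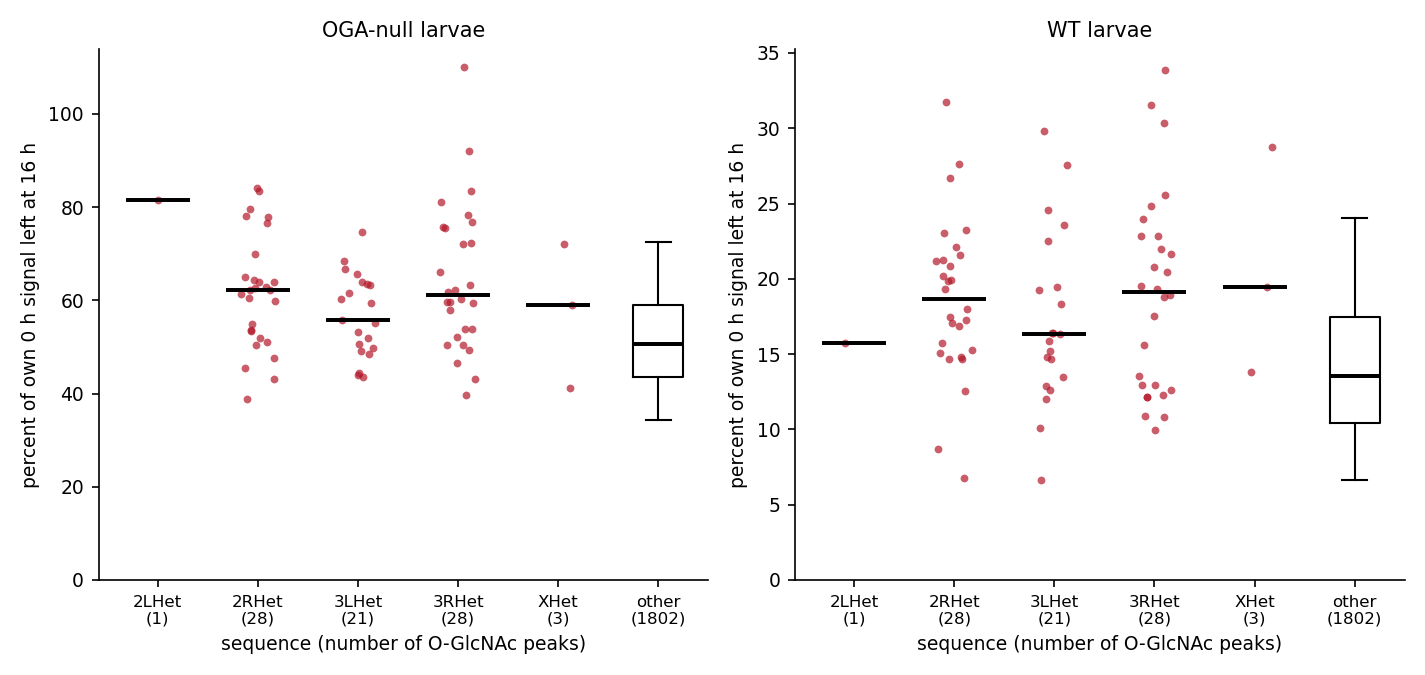
Percent of each O-GlcNAc peak's own 0 h signal that was left at 16 h in OGA-null and in WT larvae, with 1 point per Het peak and bars at the medians; the box gives the quartiles and median of the 1802 other peaks and its whiskers their 5th and 95th percentiles, and the axes of the panels differ. Het peaks range from 38.8 to 110% in OGA-null and from 6.64 to 33.9% in WT larvae, and 63 and 62 of the 81 lie above the median of the other peaks.

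Between 12 and 16 h many Het peaks had little or no loss of signal. The median Het peak at 16 h had 89.3% of its 12 h signal in OGA-null larvae and 98.8% in WT larvae. The other peaks had 82.2% in OGA-null and 84.8% in WT larvae. At 30 of the 81 Het peaks (37.0%) in OGA-null and 37 (45.7%) in WT larvae the signal was higher at 16 h than at 12 h, against 19.8% of the others in OGA-null and 31.9% in WT larvae. Since the scaling of the 16 h columns against the 12 h columns is not known, these percents set Het peaks against other peaks of the same columns and not one time against another.

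The excess was present on each of the long Het sequences. At 16 h the median percent left was 62.2% in OGA-null and 18.6% in WT larvae on 2RHet, 55.8% and 16.3% on 3LHet, and 61.1% and 19.1% on 3RHet. The 3 peaks of XHet had medians of 59.1% in OGA-null and 19.4% in WT larvae, and the single peak of 2LHet had 81.6% and 15.8%. All 5 sequences were above the other peaks, which had 50.6% in OGA-null and 13.6% in WT larvae. 3LHet was the lowest of the long Het sequences in both genotypes.

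Peak width differed between Het and other peaks, and the excess was compared within widths. Among peaks of exactly 20 bp, 60.4% of the 0 h signal was left at 16 h at Het peaks in OGA-null larvae, against 48.2% at other peaks, and 16.4% against 13.1% in WT larvae. Among wider peaks the values were 61.7% against 52.1% in OGA-null and 18.6% against 13.8% in WT larvae. The Het median was the higher one at all 7 times in each width class, except among peaks of 20 bp at 4 h in WT larvae, where the log2 difference was -0.0013. At 24 h the WT excess was 0.17 on the log2 scale among peaks of 20 bp and 0.41 among wider ones, against 0.34 for all widths. Among peaks with a 0 h signal per base between the quartiles of the Het peaks, an alternative added after seeing the data, the WT excess at 16 h was 0.26 in place of 0.41. Across the 81 Het peaks the correlation of width with the percent left at 16 h was near 0 (Pearson's r = 0.06 in OGA-null and 0.03 in WT larvae, a description over peaks that share their libraries). Over the other peaks r was 0.21 in OGA-null and 0.09 in WT larvae.

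**Figure D5:**
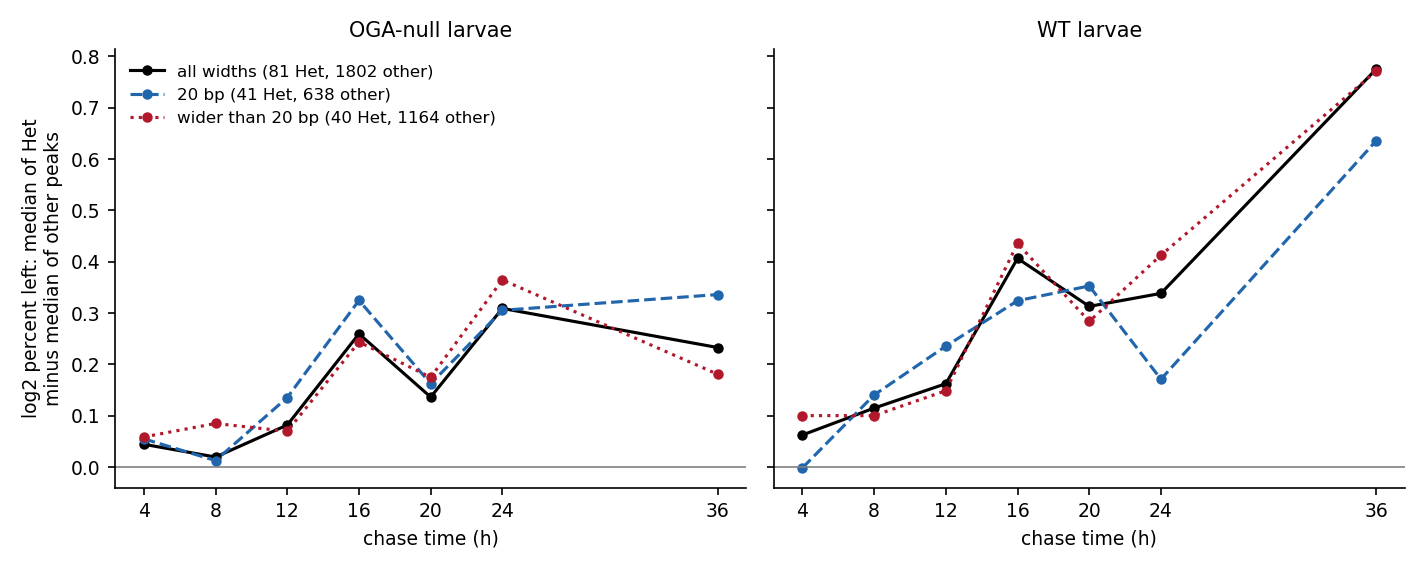
Log2 difference between Het and other O-GlcNAc peaks in the median percent of 0 h signal left, against chase time in h, for all peaks, peaks of 20 bp and wider peaks, in OGA-null and WT larvae. At 16 h the difference is 0.32 for peaks of 20 bp and 0.24 for wider peaks in OGA-null, and 0.32 and 0.44 in WT larvae.

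The share left was also set out by whether an OGA peak lay nearby. The 20 Het O-GlcNAc peaks with an OGA peak within 1 kb had a median of 60.3% left at 16 h in OGA-null and 15.7% in WT larvae, and the 61 without one had 61.5% in OGA-null and 18.3% in WT larvae. Among the other peaks, the 472 with OGA within 1 kb had 49.1% in OGA-null and 12.6% in WT larvae, and the 1330 without had 51.4% and 13.8%. Peaks with OGA nearby had the slightly lower median in each class and genotype, and Het peaks were above the other peaks with and without OGA nearby in both genotypes.

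In the values as deposited, both genotypes had less signal at 36 h than at 0 h at every Het peak. The OGA-null value was the higher one from 4 h on at nearly all of them, as at nearly all other peaks. The scaling of the columns against each other is not known. A factor that differs between columns would shift the ratios, counts and half-lives below. At 0 h the OGA-null signal was lower at all 81, with a median ratio (OGA-null over WT) of 0.69, and it was higher at only 3 of the 1802 other peaks. From 4 to 36 h the median ratio was 1.44, 1.54, 2.46, 2.41, 2.24, 2.63 and 6.28. Over the other peaks it was 0.69 at 0 h and then 1.40, 1.59, 2.63, 2.54, 2.58, 2.71 and 8.19. Ratios use signal + 1, and the last depends on it, since WT signal was then near the floor: its median was 2.65 on the log2 scale, and 1.74 with 10 added in place of 1.

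The count of Het peaks at least 2-fold higher in OGA-null larvae was read against the same count over all 1883 peaks. It was 0 of 81 at 0 h, where 0% of all peaks passed, and 0 at 4 h, where 1.38% did. At 8 h it was 7 (8.64%), against 11.6% of all peaks, and at 12 h it was 76 (93.8%), against 90.0%. It was 57 at 16 h (70.4%, against 79.7% of all) and 59 at 20 h (72.8%, against 80.2% of all). At 24 h it was 67 (82.7%, against 79.8% of all), and at 36 h it was 81 (100%, against 98.9% of all). The Het share was thus below that of all peaks at 4, 8, 16 and 20 h and above it at 12, 24 and 36 h, and these gaps were not tested.

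Het peaks that were not higher in OGA-null larvae after 0 h were few, as were such peaks in the whole table. At 4 h this was the 2RHet peak from 529008 to 529051, and at 8 h the 2RHet peak from 527514 to 527541 and the 3LHet peak that starts at 2449162. At 20 h it was the 2RHet peak from 3134538 to 3134563, with 6.76 per base in OGA-null and 7.94 in WT larvae. The peaks at 527514 and 529008 belong to the same cluster of 3. At 12, 16, 24 and 36 h all 81 Het peaks were higher in OGA-null larvae.

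An apparent half-life, from the least-squares slope of log2(signal + 1) on chase time, condensed each course into 1 value. It sets columns of unknown scaling against each other. Its median over Het peaks was 9.05 h in OGA-null larvae (range 7.66 to 11.0) and 5.52 h in WT larvae (4.53 to 7.11), against 8.46 h in OGA-null and 4.95 h in WT larvae at the other peaks. The half-life was longer in OGA-null larvae at 81 of 81 Het peaks and also at 1802 of 1802 other peaks. The median ratio (OGA-null over WT) was 1.65 at Het peaks (1.36 to 2.11), against 1.70 at the other peaks. Among peaks of 20 bp the median half-life was 9.09 h in OGA-null and 5.57 h in WT larvae at Het peaks, against 8.31 h and 5.19 h at others. The log2 signal of OGA-null larvae did not decline along a line, and over 0 to 16 h alone the median half-life at Het peaks came to 19.7 h.

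The Het peak whose WT signal per base was highest at 0 h lay on 2RHet at 2165443 to 2165518, at the end of the long interval without O-GlcNAc peaks. It ranked 9 among all 1883 peaks, and its nearest OGA peak was 8128 bp away. Its signal per base in OGA-null larvae was 31.9, 35.4, 26.6, 25.6, 26.8, 15.3, 6.62 and 3.22 at the 8 times from 0 to 36 h. In WT larvae it was 52.8, 27.7, 21.3, 11.1, 14.6, 6.87, 2.41 and 1.21. At 16 h 84.2% of its 0 h signal was left in OGA-null and 27.6% in WT larvae, both well above the Het medians, and its half-lives were 10.1 h in OGA-null and 6.59 h in WT larvae.

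The second highest, on 3RHet at 2341303 to 2341415, followed another course. Its signal per base in OGA-null larvae was 31.5, 29.5, 26.0, 21.6, 18.7, 11.7, 4.18 and 2.23 from 0 to 36 h. In WT larvae it was 47.3, 25.4, 16.8, 8.31, 5.14, 4.31, 2.30 and 0.205, with no higher value at 16 h than at 12 h. It retained 59.4% at 16 h in OGA-null and 10.9% in WT larvae, so that in WT it lay below the median of the other peaks. An OGA peak lay 272 bp from it.

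The third, on XHet at 179843 to 179884, had 25.4, 28.7, 24.7, 22.1, 18.3, 12.3, 5.03 and 3.19 per base in OGA-null larvae from 0 to 36 h. In WT larvae it had 44.2, 22.9, 18.8, 9.21, 12.7, 5.75, 1.63 and 0.344. It resembled the highest peak in having more WT signal at 16 h than at 12 h, with 72.1% left at 16 h in OGA-null and 28.7% in WT larvae. Its nearest OGA peak was 54178 bp away.

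The highest peak of 3LHet, at 357366 to 357394, retained 74.7% at 16 h in OGA-null and 23.6% in WT larvae. The only O-GlcNAc peak of 2LHet, at 131019 to 131072, had an OGA peak 660 bp away. Its signal per base was 23.9, 25.1, 20.5, 16.8, 19.5, 8.69, 4.20 and 1.80 in OGA-null and 35.1, 20.0, 10.8, 7.26, 5.53, 2.72, 1.91 and 0.245 in WT larvae. It thus lay far above the Het median at 16 h in OGA-null larvae and below it in WT larvae.

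The largest share left at 16 h in WT larvae was 33.9%, on 3RHet at 1357552 to 1357584, where 63.3% was left in OGA-null larvae. It was followed by the peak on 2RHet at 612476 to 612495, with 77.9% in OGA-null and 31.7% in WT larvae, and the peak on 3RHet at 2225687 to 2225706, with 110% and 31.6%. This last peak is one of the 6 that overlap OGA. Its signal per base was 22.8, 23.0, 23.0, 16.2, 25.1, 10.9, 5.13 and 2.78 in OGA-null and 33.0, 18.8, 15.0, 6.92, 10.4, 5.19, 1.98 and 0.936 in WT larvae. It was the only Het peak above its own 0 h value at 16 h, in OGA-null larvae, where 1 of the 1802 other peaks was too. Its half-lives of 11.0 h in OGA-null and 7.11 h in WT larvae were the longest of the 81.

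The smallest shares left at 16 h in WT larvae were all at peaks of 20 bp. The peak on 3LHet at 1076973 to 1076992 retained 63.9% in OGA-null and 6.64% in WT larvae, and that on 2RHet at 102104 to 102123 retained 43.1% and 6.75%. The peak on 2RHet at 163738 to 163757, in the cluster of 4, retained 53.6% and 8.67%. The first of these was near the Het median in OGA-null larvae, so a low share in WT did not always go with a low share in OGA-null.

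The other overlaps with OGA were spread over the Het range. At 16 h the peak on 2RHet at 527186 retained 76.6% in OGA-null and 21.3% in WT larvae, and that on 3RHet at 1877378 retained 75.5% and 24.8%. The peaks on 3RHet at 1168169 and 1832154 retained 66.1% and 49.3% in OGA-null, and 15.6% and 12.9% in WT larvae. The peak on XHet at 125652 retained 59.1% in OGA-null and 13.8% in WT larvae. These 5 peaks thus had 49.3 to 76.6% left in OGA-null and 12.9 to 24.8% in WT larvae. The quartiles of all Het peaks were 51.9 and 68.4% in OGA-null and 14.7 and 22.0% in WT larvae. In both genotypes some of the 5 lay above the upper quartile and some below the lower one.

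The 3 Het peaks with the lowest WT 0 h signal per base were less alike in what was left. On 3LHet, the peak at 639540 to 639602 began at 23.0 in OGA-null and 25.4 in WT larvae, and the peak at 2260674 to 2260709 at 21.6 and 26.0. The peak on 2RHet at 102104 began at 21.8 and 25.4. At 16 h the peak at 2260674 retained 53.3% in OGA-null and 29.8% in WT larvae, far from the 6.75% of the 2RHet peak in WT. The 3 widest peaks also spread, with 76.9%, 55.2% and 45.4% left in OGA-null and 17.5%, 12.0% and 16.9% in WT larvae at 826361 on 3RHet, 192382 on 3LHet and 1137916 on 2RHet.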

How the data were processed

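The deposited O-GlcNAc-seq table holds signal in 16 columns (a genotype at a chase time each), and per the file headers each combines replicates 1 and 2, 32 libraries in all. The authors' OGA list has positions only, with no score. Named in the submitters' processing notes are dm3 and sacCer3 as builds and SAMtools and bedtools 2.17.0 as tools, with no role. Aligner, peak caller and scaling are not given, and depth is unknown.

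Signal was divided by peak width. The percent left is against the same peak's 0 h signal, ratios and half-lives use log2(signal + 1), and a half-life is -1 over the least-squares slope. Overlap needed 1 bp, clusters were chained at gaps up to 10 kb, and 1 was added to each start, so positions count from 1 in dm3. Without a dm3 genome or annotation, no gene or sequence is given. Planned per-library fits could not be made.

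Peaks were named by a rule: the highest WT 0 h signal per base on each Het sequence, the 3 highest and 3 lowest of all Het peaks, the 3 widest, the 3 largest and 3 smallest shares left at 16 h in WT, all overlaps with OGA and the 3 closest other pairs, the widest OGA peak per sequence, the 3 largest clusters of each kind, and any count of 5 or fewer. The peaks, the rule and the comparisons were chosen with earlier results of these data known. Alternatives covered filters, overlap rules, cluster gaps, pseudocounts, chase times and Het sequences left out. Scripts were tested on simulated data and used Python 3.11.15, numpy 2.4.6, pandas 2.3.3, scipy 1.17.1 and matplotlib 3.10.9.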

Additional observations from a re-analysis of the deposited data

How the results depend on the processing

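No paired analysis was possible because each deposited column combines replicates 1 and 2, and for the same reason no replicate could be left out. Over 21 results, 89 alternatives were computed: 81 stayed within 1.5 times the reported value, 8 moved by more than that and 0 reversed. Counts, percents and half-lives could not reverse, and another pseudocount cannot change the sign of a log2 ratio. The excess of Het over other peaks was varied at 16 and 24 h only. Its WT value of -0.0013 at 4 h among peaks of 20 bp is therefore not among the 89. With OGA peaks of at least 20 bp only, 200 lay on Het sequences in place of 424. Of the O-GlcNAc peaks in the upper part by WT 0 h signal per base, cut at the median, 45 did in place of 81. Both filters also removed peaks on the other sequences. The Het share was then 12.8% of OGA peaks, in place of 12.0%, and 4.78% of O-GlcNAc peaks, in place of 4.30%. O-GlcNAc peaks counted as meeting OGA were 6 at 1 bp of overlap, 2 when the overlap had to cover 0.5 of the peak and 20 with gaps up to 1 kb allowed. At 36 h the log2 ratio (OGA-null over WT) was 2.65 with a pseudocount of 1 and 1.74 with 10. The OGA-null half-life was 19.7 h over 0 to 16 h alone, against 9.05 h over all times. The WT excess of Het over other peaks was 0.17 in place of 0.34 at 24 h among peaks of 20 bp. At 16 h it was 0.26 in place of 0.41 among peaks with 0 h signal per base between the quartiles of the Het peaks, an alternative chosen after seeing the data. The cause of each of these moves was not tested, beyond the fewer peaks that the filters leave. Without each Het sequence in turn, the log2 excess at 16 h was 0.24 to 0.29 in OGA-null and 0.35 to 0.49 in WT larvae. The depth of the libraries, the peak thresholds and the treatment of reads that map to repeats are not known here. The shares left at 36 h in WT larvae lie near the floor of the signal.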

Other observations

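At 4 h of chase in OGA-null larvae, 43 of the 81 Het peaks (53.1%) had more signal than at 0 h, against 782 of 1802 other peaks (43.4%). At 8 h 3 Het peaks (3.70%) still did, against 18 of the 1802 other peaks (1.00%). These 3 lay on 2RHet at 3134538 and on 3RHet at 182797 and 2225687, named here after their values were seen. The scaling of these columns against the 0 h columns is not known. Het peaks made up 2.66% of the bases of all O-GlcNAc peaks. They held 2.63% of the summed signal at 0 h in OGA-null and 2.56% in WT larvae. At 16 h they held 3.01% in OGA-null and 3.17% in WT, at 24 h 3.13% and 3.30%, and at 36 h 2.94% and 4.57%.

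Across the 81 Het peaks, which share their libraries, the log2 signal per base at 0 h in OGA-null and WT larvae had a Pearson's r of 0.51 and a Spearman's rho of 0.34. The same relation over the other peaks had 0.65 and 0.56. The percent left in the genotypes had r = 0.09 at 8 h, 0.41 at 16 h and 0.43 at 24 h over Het peaks.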
